A study of Homo sapiens with 6 samples.

Results

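The MAPK feedback and output genes are 10 genes that ERK signalling switches on: *DUSP4*, *DUSP5*, *DUSP6*, *SPRY2*, *SPRY4*, *SPRED1*, *SPRED2*, *ETV4*, *ETV5* and *PHLDA1*. They were taken by gene symbol from a table of 60480 gene identifiers, each matched 1 row, and all 10 passed the filter on low counts that left 19778 genes to test. The table holds RNA-seq of OE-19 cells, an adenocarcinoma line of the esophagogastric junction, grown in RPMI1640 medium with serum. The 3 control libraries are labelled shControl (columns named Puro) and the 3 IGF2BP3 knockdown (KD) libraries shIGF2BP3. Both groups are the same line, and the hairpin in each KD library is not given in the sources used here. IGF2BP3 is an RNA-binding protein that reads m6A marks on mRNA.

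In the RAS-MAPK pathway, growth factor receptors load RAS with GTP, and RAS then drives the kinases RAF, MEK and ERK in turn. Active ERK raises transcription of its own inhibitors. DUSP phosphatases remove the activating phosphates from ERK, Sprouty (SPRY) proteins dampen signalling between receptor and RAS, and SPRED proteins bring the RAS GTPase activator neurofibromin to the membrane. ERK also raises the ETS transcription factors ETV4 and ETV5, so the mRNA of these genes is widely read as a measure of pathway output. OE-19 is a line in which the receptor gene *ERBB2* is amplified.

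Total counts were between 58966114 and 69989087 in the control libraries and between 53424071 and 63008137 in the KD libraries. Values are given as CPM, the counts of a gene relative to the total of its library, with libraries scaled by TMM in edgeR. Differences were tested for all 19778 genes with the quasi-likelihood test of edgeR, and a gene is called at a Benjamini-Hochberg adjusted p under 0.05. In control replicates 1, 2 and 3 the counts of *IGF2BP3* itself were 7416, 7363 and 6532, and in the KD replicates 777, 792 and 794, which is a log2 fold change of -3.03 with a standard error (SE) of 0.06. The 6 epithelial markers summed to between 18200 and 19100 CPM in control and between 19800 and 20300 CPM in KD libraries. Of these, *ERBB2* was higher in KD cells, at 14300 ± 279 against 13100 ± 516 CPM (SD, n = 3, log2 fold change 0.13, adjusted p = 0.0030), as was *EPCAM*, while *KRT8* and *KRT18* were lower. Of 9 stromal, immune and endothelial markers, 7 had a mean under 1 CPM, with *COL1A2* and *CD3E* at 0 in all 6 libraries. Their sum was between 54.6 and 61.3 CPM in control and between 82.8 and 83.8 CPM in KD libraries, and nearly all of it was *COL1A1* and *CD68*. Both were called higher in KD cells (log2 fold change 0.50 and 0.54, adjusted p = 7.8e-04 and 1.9e-04). Of the 2163 exon bases of *CD68*, 1852 also belong to other genes, so its counts are uncertain. The part of these markers in any result below was not tested. Nothing in the labels says that the 3 libraries of a group came from separate cultures, so p-values measure the spread between libraries, which may be technical. In bulk RNA, fewer cells of a kind and less RNA per cell cannot be told apart.

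The mRNA of 3 of the 10 genes was lower in IGF2BP3 KD cells, that of 1 was higher, and 6 were not called. *DUSP4*, *SPRY4* and *PHLDA1* fell, *SPRED2* rose, and *DUSP5*, *DUSP6*, *SPRY2*, *SPRED1*, *ETV4* and *ETV5* did not pass the test. All called changes were small, between a fall of 13.2% and a rise of 21.1% in mean CPM. Among all genes tested, 10.6% were called lower and 9.87% higher, or 20.4% in either direction. A mean CPM of 10 or more was reached by 9 of the 10 genes, and at that level 19.3% of genes were lower and 16.5% higher, so 3 lower genes and 1 higher gene are not far from the background. With the replicate number as a block, the counts were also 3 and 1 of the 10, against 10.2% and 9.48% of all genes. By DESeq2 they were 4 and 1, against 16.6% and 14.2% of the 14581 genes to which DESeq2 gave an adjusted p, a smaller set than the 19778. The median log2 fold change of the 10 genes was -0.13, against 0.01 for all genes tested, and 9 of the 10 estimates were below 0, against 48.6% of all genes. Among these 9 were *SPRED1* at -0.03, *ETV4* at -0.04 and *SPRY2*, whose group means were both 29.5 CPM. The estimates of *SPRY2* and *SPRED1* turned sign in fits with 1 library left out. The KD values lay wholly below the control values in 4 of the 10 genes and wholly above in 1, against 17.8% and 18.0% of all genes (35.8% without overlap in either direction). The median, the share below 0 and the shares without overlap are over all genes tested. They were not taken at a mean CPM of 10 or more, where calls are more frequent, so this background is unlike the 10 genes in level. Averaged over the 10 genes, log2 CPM in KD replicates 1, 2 and 3 was -0.09, -0.09 and -0.11 relative to the control mean, while the control replicates were at 0.04, -0.04 and 0.00. This average is a description, since the genes were chosen with earlier results of these data known.

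**Figure D1:**
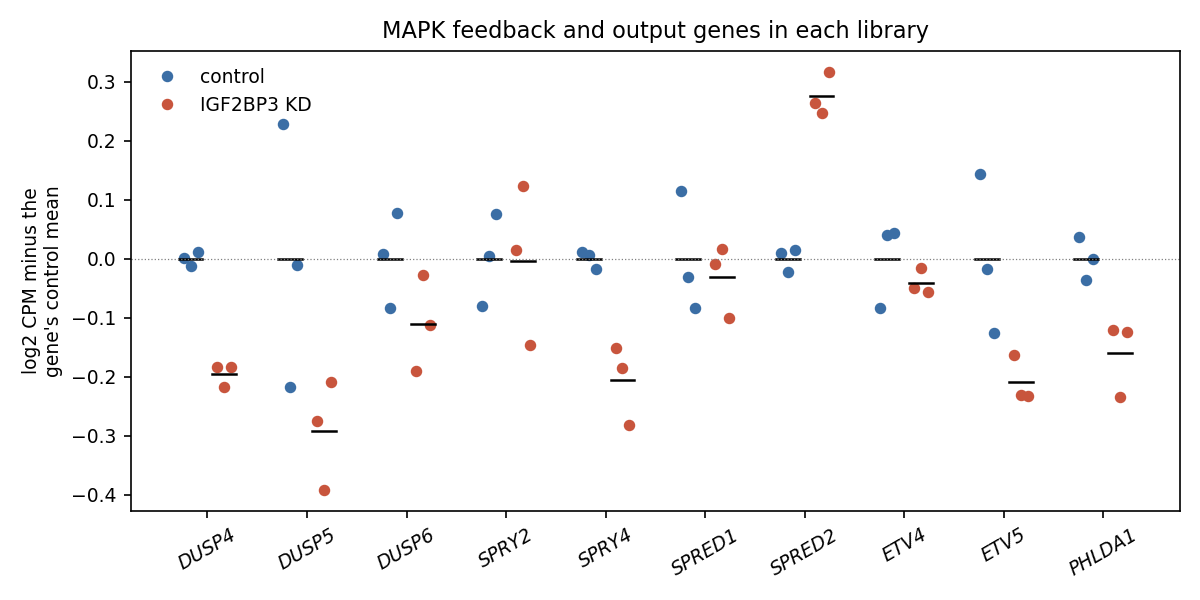
Log2 CPM of each of the 10 genes in each library, relative to the gene's own control mean (y axis); blue points are control libraries, red points IGF2BP3 KD libraries and black lines group means. *DUSP4*, *SPRY4*, *ETV5* and *PHLDA1* have all KD points below all control points, *SPRED2* has all KD points above, and the other 5 genes overlap.

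The mRNAs were also searched for 2 words of 7 bases in the 3′ UTR, GATTACT and ACACATC, which were picked in earlier results of these data because the genes that hold them moved. Among 13732 tested coding genes with a 3′ UTR of at least 50 bases on the canonical GENCODE v44 transcript, 7.8% hold GATTACT and 9.66% hold ACACATC on the mRNA strand. Of the 864 genes with GATTACT and not ACACATC, 37.4% were called lower and 5.44% higher in IGF2BP3 KD cells. Of the 1119 genes with ACACATC and not GATTACT, 31.0% were higher and 7.95% lower. These shares are what picked the words, and they support nothing here. Among the 10 genes, *SPRED1* holds GATTACT once, *SPRED2* and *PHLDA1* hold ACACATC once each, and the other 7 hold neither. These 3 sites are shown with the word in capitals, 5′ to 3′ on the mRNA strand, because the genes that hold them behaved in 3 different ways. The site of *SPRED1* is at chr15:38356870-38356898 on the plus strand of hg38, that of *SPRED2* at chr2:65310851-65310876 on the minus strand, where the transcript ends, and that of *PHLDA1* at chr12:76026384-76026412 on the minus strand.
SPRED1: agaataagttgGATTACTatattatagtt
SPRED2: tgtaaatataaACACATCctatcaga
PHLDA1: tatgagttcaaACACATCccttgttttct
The words begin at base 5217 of 5585 in the 3′ UTR of *SPRED1*, at base 2636 of 2650 in *SPRED2* and at base 3718 of 4672 in *PHLDA1*. *SPRED1* was not called, *SPRED2* rose and *PHLDA1* fell. The lower genes *DUSP4* and *SPRY4* hold neither word. All 10 genes hold TGGAC, the DNA spelling of an m6A motif that IGF2BP3 is reported to bind, between 1 and 5 times in the 3′ UTR, against 62.1% of the coding genes. Their 3′ UTRs are also longer, with a median of 2487.5 bases against 1286. A match to these letters is a description and not a shown binding site.

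*DUSP4* (ENSG00000120875, chromosome 8, 29333064 to 29350684, minus strand) encodes a nuclear phosphatase that inactivates ERK. It was at 359, 356 and 362 CPM in control replicates 1, 2 and 3, and at 316, 309 and 316 CPM in KD replicates 1, 2 and 3. The replicates of each group lay within a factor of 1.02 of each other, the narrowest spread of the 10 genes, and the groups did not overlap. The means were 359 ± 2.93 and 314 ± 4.17 CPM (SD, n = 3) (log2 fold change -0.20, SE 0.03, adjusted p = 2.4e-04). With each library left out in turn, *DUSP4* was called in all 6 fits, with an adjusted p of at most 0.0029.

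*DUSP6* (ENSG00000139318, chromosome 12, 89347235 to 89352501, minus strand) encodes a cytoplasmic phosphatase specific for ERK. Its CPM was 82.6, 77.5 and 86.7 in control replicates and 72.0, 80.6 and 76.0 in KD replicates. KD replicate 2 lay above control replicate 2, so the groups overlapped. The log2 fold change was -0.11 with a 95% interval from -0.23 to 0.01 (adjusted p = 0.21), which leaves room for a fall as large as that of *DUSP4*. Of its exon bases, 28.6% also belong to ENSG00000274021 on the opposite strand, a gene with 120 to 409 counts per library that was not called (adjusted p = 0.62).

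*DUSP5* (ENSG00000138166, chromosome 10, 110497907 to 110511533, plus strand) encodes a nuclear phosphatase for ERK and was the least expressed of the 10. Its counts were only 178, 133 and 129 in the control libraries and 99, 105 and 121 in the KD libraries, or 2.60, 1.91 and 2.20 against 1.83, 1.69 and 1.92 CPM. The groups overlapped at their edge, with KD replicate 3 just above control replicate 2. The estimate of -0.30 was the lowest of the 10 genes, but its standard error was 0.21 and its 95% interval from -0.75 to 0.15. At this depth, a change of the size seen in *DUSP4* was not detectable for *DUSP5*.

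*SPRY4* (ENSG00000187678, chromosome 5, 142310427 to 142326455, minus strand) encodes a Sprouty protein. It was at 37.8, 37.7 and 37.0 CPM in control replicates and at 33.8, 33.0 and 30.9 CPM in KD replicates. Every KD value was below every control value, and the control replicates lay within a factor of 1.02. The mean fell from 37.5 ± 0.405 to 32.5 ± 1.51 CPM (SD, n = 3) (log2 fold change -0.21, SE 0.06, adjusted p = 0.024). This call is fragile: it was lost when any 1 library other than KD replicate 1 was left out, with log2 fold changes from -0.24 to -0.17 and adjusted p from 0.037 to 0.097 over the 6 fits.

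*SPRY2* (ENSG00000136158, chromosome 13, 80335976 to 80341126, minus strand), a second Sprouty gene, was at 27.8, 29.5 and 31.0 CPM in control replicates and at 29.7, 32.0 and 26.6 CPM in KD replicates. KD replicate 2 was the highest of the 6 libraries and KD replicate 3 the lowest. Both means were 29.5 CPM, and the 95% interval of the log2 fold change ran from -0.17 to 0.17 (adjusted p = 1.00). The sign of the estimate turned when KD replicate 3 or control replicate 3 was left out, at 0.07 and 0.04.

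*SPRED2* (ENSG00000198369, chromosome 2, 65310851 to 65432637, minus strand) was the only one of the 10 genes called higher. It was at 68.0, 66.5 and 68.3 CPM in control replicates and at 81.1, 80.2 and 84.2 CPM in KD replicates. The lowest KD value was well above the highest control value. The mean rose from 67.6 ± 0.939 to 81.8 ± 2.09 CPM (SD, n = 3) (log2 fold change 0.28, SE 0.04, adjusted p = 6.8e-04), and the call was kept in all 6 fits without 1 library. The 3′ UTR of *SPRED2* holds ACACATC at its end, as shown above, and that of *PHLDA1*, which fell, holds the same word. The word was picked from changes in these same data, so the site supports nothing here. A part of that site in the rise was not tested.

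*SPRED1* (ENSG00000166068, chromosome 15, 38252836 to 38357249, plus strand) encodes the other SPRED protein found well expressed here. Its CPM was 127, 114 and 110 in control replicates and 116, 118 and 109 in KD replicates. Control replicate 1 stood above the other 5 libraries, which lay between 109 and 118 CPM. The log2 fold change was -0.03 with a 95% interval from -0.15 to 0.08 (adjusted p = 0.74), and it was 0.02 without control replicate 1. Its 3′ UTR holds the GATTACT site shown above.

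*ETV4* (ENSG00000175832, chromosome 17, 43527844 to 43579620, minus strand) and *ETV5* (ENSG00000244405, chromosome 3, 186046314 to 186110318, minus strand) encode ETS transcription factors of the PEA3 group. *ETV4* was at 85.5, 93.2 and 93.5 CPM in control replicates and at 87.6, 89.6 and 87.1 CPM in KD replicates. All 3 KD values lay within the control range. The log2 fold change of *ETV4* was -0.04 with a 95% interval from -0.14 to 0.06 (adjusted p = 0.59). *ETV5* was at 28.7, 25.6 and 23.8 CPM in control replicates and at 23.2, 22.1 and 22.1 CPM in KD replicates. The KD values of *ETV5* were all below the control values, by a margin of less than 1 CPM to control replicate 3. Its log2 fold change was -0.21 (standard error 0.08, unadjusted p = 0.017, adjusted p = 0.072), so *ETV5* was not called, with the control replicates spread over a factor of 1.21. It was called by DESeq2 (adjusted p = 0.048) and by edgeR without control replicate 3 (adjusted p = 0.040).

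*PHLDA1* (ENSG00000139289, chromosome 12, 76025447 to 76031776, minus strand) encodes a pleckstrin homology-like domain protein whose transcription follows ERK activity. It was at 145, 138 and 142 CPM in control replicates and at 130, 120 and 130 CPM in KD replicates. The groups did not overlap, and KD replicate 2 was the lowest of the 6 libraries. The mean fell from 142 ± 3.54 to 127 ± 5.64 CPM (SD, n = 3) (log2 fold change -0.16, SE 0.04, adjusted p = 0.015). The call was lost without KD replicate 2 (adjusted p = 0.074) and without control replicate 3 (adjusted p = 0.054). Without KD replicate 2, *SPRY4* was lost as well, so only *DUSP4* remained called lower and the count of lower genes went from 3 to 1. The 3′ UTR of *PHLDA1*, like that of *SPRED2*, which rose, holds ACACATC.

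**Figure D2:**
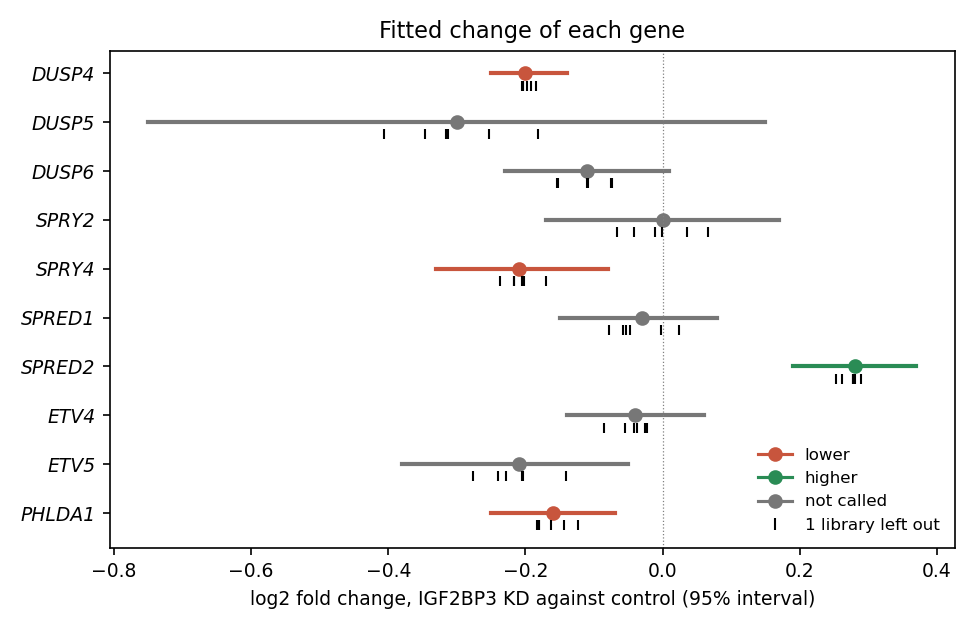
Log2 fold change of each gene, IGF2BP3 KD against control, from edgeR (x axis) with its 95% interval; colours mark genes called lower, higher or not called, and ticks mark the 6 estimates with 1 library left out. *DUSP5* has the widest interval (-0.75 to 0.15), *DUSP4* one of the narrowest (-0.25 to -0.14), and *SPRED2* is the only interval wholly above 0.

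The members of a pair of paralogs can be compared within a library, where the ratio of their counts does not depend on the scaling between libraries. The ratio of *SPRED2* to *SPRED1* was 0.537, 0.581 and 0.619 in control replicates and 0.699, 0.678 and 0.772 in KD replicates, without overlap. Its log2 value was higher in KD cells by 0.31. The ratio of *SPRY4* to *SPRY2* was 1.36, 1.28 and 1.19 in control replicates and 1.14, 1.03 and 1.16 in KD replicates, also without overlap, and its log2 value fell by 0.20. The ratio of *DUSP4* to *DUSP6* overlapped between the groups, at 4.17 to 4.59 against 3.83 to 4.39, with a log2 difference of -0.09. That of *ETV5* to *ETV4* overlapped too, at 0.254 to 0.335 against 0.247 to 0.264, with a difference of -0.17. Two-sided exact permutation tests of these 4 ratios gave p = 0.1 for both the SPRED and the Sprouty pair, the smallest that 3 libraries against 3 allow, and 0.4 and 0.2 for the DUSP and ETV pairs (0.2, 0.2, 0.4 and 0.27 after adjustment over the 4). This exact test cannot reach 0.05 with 3 libraries a group, so a p of 0.1 does not show that the members of a pair moved alike.

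**Figure D3:**
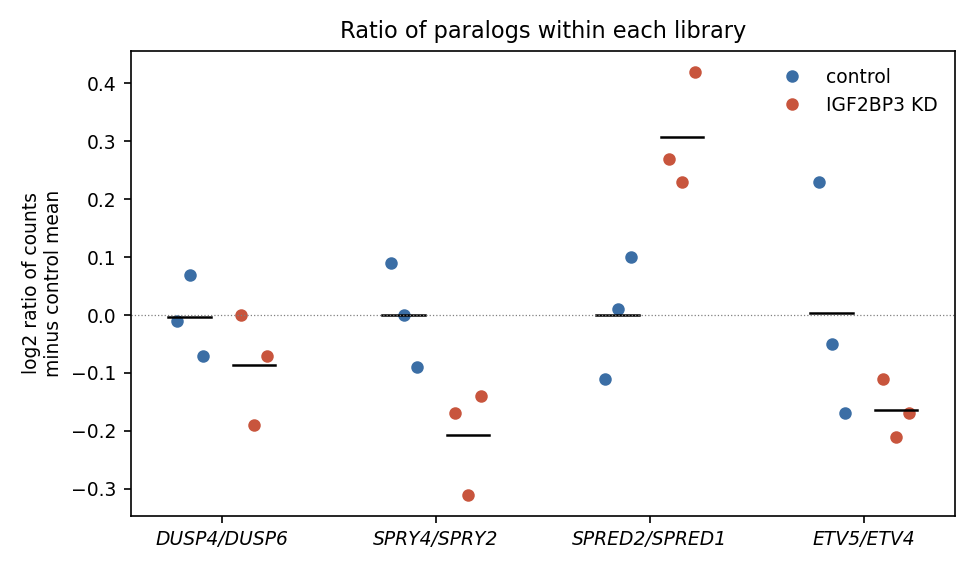
Log2 ratio of the counts of a pair of paralogs within each library, relative to the control mean (y axis), for 4 pairs; blue points are control and red points IGF2BP3 KD libraries, and black lines are means. The groups are apart for *SPRY4*/*SPRY2* (difference -0.20) and *SPRED2*/*SPRED1* (difference 0.31) and overlap for the other pairs.

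Levels of different genes were compared as CPM per kilobase of exon, on gene models of GENCODE v44. In control cells, *DUSP4* was highest at 49.4 ± 0.403 CPM per kilobase (SD, n = 3). *ETV4* at 25.8 ± 1.29 and *PHLDA1* at 23.9 ± 0.599 came next, and their ranges over the 3 libraries overlapped. *DUSP6* followed at 21.3 ± 1.19, *SPRED1* at 15.1 ± 1.10, *SPRED2* at 12.3 ± 0.171 and *SPRY2* at 9.17 ± 0.495. *SPRY4* at 5.72 ± 0.0619, *ETV5* at 4.51 ± 0.428 and *DUSP5* at 0.882 ± 0.137 were lowest. All neighbours in this order other than *ETV4* and *PHLDA1* had ranges that did not overlap. In KD cells the order was the same but for the SPRED genes, with *SPRED2* at 14.9 ± 0.379 and *SPRED1* at 14.8 ± 0.625. Of the 10 dual-specificity phosphatases that act on MAP kinases, *DUSP4* and *DUSP6* were the highest in control cells. *DUSP16*, which acts on JNK and p38, came after them at 10.7 ± 0.284 CPM per kilobase.

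**Figure D4:**
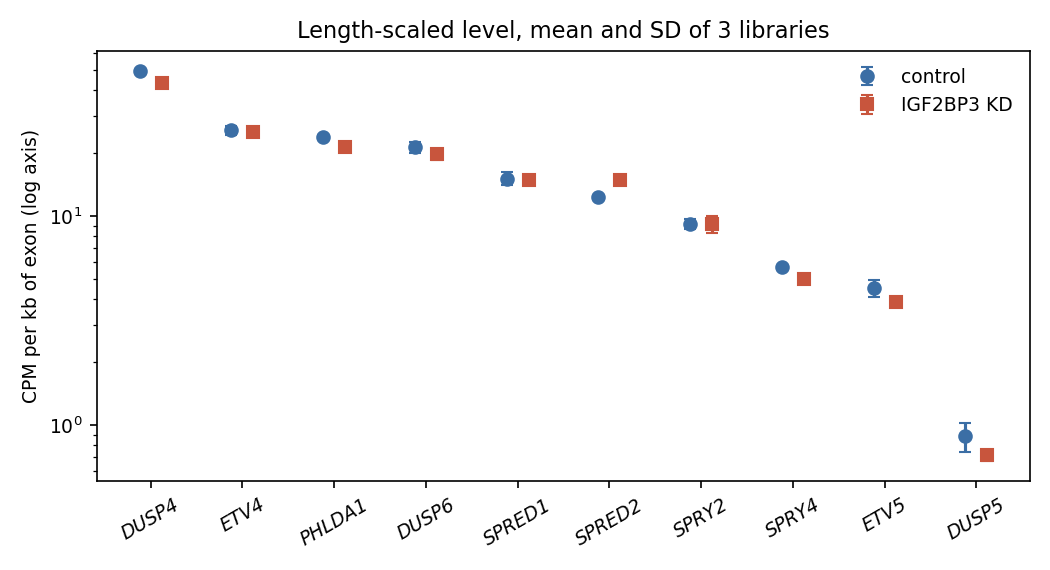
Level of each gene in CPM per kilobase of exon (y axis, log scale) in control (blue circles) and IGF2BP3 KD cells (red squares), as mean and SD of 3 libraries, ordered by the control level. The genes run from *DUSP4* at 49.4 to *DUSP5* at 0.882 in control cells, and *SPRED2* is the gene whose KD mean is visibly above its control mean.

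The gene most like *DUSP4*, the one of the 10 with the smallest p, was sought among the 14239 other tested genes at a mean of 1 CPM or more, by the root mean square difference in log2 CPM relative to the control mean over the 6 libraries. The closest was *ERRFI1*, which encodes a feedback inhibitor of EGFR-family receptors, with a difference of 0.0056. *UBR7* and *CD55* followed at 0.0099 and 0.0101, with log2 fold changes of -0.19 and -0.20. The measure ranks high any gene with a steady fall of about this size, and a shared cause was not tested. *ERRFI1* went from 89.9 ± 0.841 to 78.7 ± 0.772 CPM (SD, n = 3) (log2 fold change -0.19, adjusted p = 0.0037).

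Of 12 genes of the RAS-RAF-MEK-ERK core, upstream of the 10 genes, 2 were lower, 1 was higher and 9 were not called, which is near the shares of all genes given above (10.6% and 9.87%, or 19.3% and 16.5% at a mean CPM of 10 or more). *MAP2K1*, which encodes the kinase MEK1, fell from 99.9 ± 1.71 to 73.8 ± 2.35 CPM (SD, n = 3), or by 0.44 on the log2 scale (adjusted p = 2.5e-05). This was a larger change in size than any of the 10 feedback and output genes showed among those called. *MAPK3*, an ERK gene named after its values were seen, was not called, at a log2 fold change of 0.18 (adjusted p = 0.099). Its groups did not overlap, and 3 of the 11 other fits called *MAPK3* higher, among them DESeq2 (adjusted p = 0.038). By DESeq2 or with the replicate number as a block, 3 core genes were higher.

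Among 12 adaptors, RAS exchange factors and RAS GAPs, 4 were lower and 2 were higher. The shares of all genes were 10.6% lower and 9.87% higher, or 19.3% and 16.5% at a mean CPM of 10 or more. *PTPN11*, whose product SHP2 is a phosphatase needed for RAS activation, fell from 408 ± 13.4 to 311 ± 4.28 CPM (SD, n = 3) (log2 fold change -0.39, adjusted p = 5.7e-06). *RASA2*, a RAS GAP, fell by 0.28 on the log2 scale (adjusted p = 0.0025). The adaptor genes *GRB2* and *GAB2* rose, by 0.24 and 0.40 on the log2 scale (adjusted p = 0.0014 and 0.0019). The group thus held changes in both directions, with a median of -0.07.

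Of 13 close relatives of the 10 genes, among them the other MAP kinase phosphatases, *SPRY1*, *SPRY3*, *SPRED3*, *ETV1*, *PHLDA2* and *PHLDA3*, 12 were tested, 1 was lower and none was higher by edgeR. *PHLDA2*, an imprinted gene for another pleckstrin homology-like protein, was lower at -0.22 on the log2 scale (adjusted p = 0.041), a call that 1 of the 6 fits without 1 library kept. By edgeR, 10.6% of all genes were lower and 9.87% higher. At an unadjusted p under 0.05, 3 relatives were lower and 1 was higher, against 3024 and 3061 of the 19778 genes tested. DESeq2 called 1 relative lower and none higher, against 16.6% and 14.2% of the 14581 genes to which it gave an adjusted p. The median of the 12 was -0.09.

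Of 15 other genes whose transcription follows ERK activity, 5 were lower and none was higher by edgeR, with a median log2 fold change of -0.16. The shares of all genes were 10.6% lower and 9.87% higher, or 19.3% and 16.5% at a mean CPM of 10 or more. At an unadjusted p under 0.05, 6 were lower and 0 were higher, against 3024 and 3061 of the 19778 genes tested. DESeq2 called 5 lower and 0 higher, against 16.6% and 14.2% of the 14581 genes to which it gave an adjusted p. *HMGA1*, a chromatin protein gene, fell from 680 ± 19.3 to 593 ± 13.2 CPM (SD, n = 3) (log2 fold change -0.20, adjusted p = 4.5e-04). *EPHA2*, an ephrin receptor gene, fell by 0.27 on the log2 scale (adjusted p = 0.0010). The other 3 lower genes were *CCND1*, *ERRFI1* and *MAFF*. *CCND1* and *ERRFI1* were called in all 6 fits without 1 library, while *MAFF* (adjusted p = 0.045) had overlapping groups and was called in 1 of the 6, with an adjusted p of up to 0.18. The median of this group was close to that of the 10 genes, and *MYC* was not called, at a log2 fold change of -0.08 (named, like *CCND1* and *MAFF*, after the values were seen).

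Of 16 ERK substrates and regulators of ETS or CIC, 6 were higher and 3 were lower. Of the 6 higher genes, *MKNK1* and *ELK3* (named after the values were seen) were each called in 2 of the 6 fits without 1 library. The count of higher genes was 4 or 5 over these fits and 4 without the low-count filter. The shares of all genes were 9.87% higher and 10.6% lower, or 16.5% and 19.3% at a mean CPM of 10 or more. *RPS6KA2*, a gene for an ERK-activated RSK kinase, rose from 23.3 ± 1.39 to 44.4 ± 2.50 CPM (SD, n = 3) (log2 fold change 0.93, adjusted p = 3.7e-06). *MKNK2*, which encodes another kinase downstream of ERK, rose by 0.67 on the log2 scale (adjusted p = 3.2e-06). *ATXN1*, whose product binds the repressor CIC, fell by 0.63 (adjusted p = 5.2e-05), and *ERF*, an ETS repressor that ERK phosphorylates, fell by 0.28 (adjusted p = 0.0013). Of 11 genes of the p38 and JNK modules, *MAPK13* and *MAP2K3* rose by 0.27 and 0.23, *MAPK14* fell by 0.31 (adjusted p = 6.2e-04, 0.0024 and 0.0014), and 8 were not called. These 2 higher genes and 1 lower gene of 11 stand beside the same shares of all genes.

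The words of the 3′ UTR were also counted in these 6 groups. Their genes are among those whose changes picked the words, so the counts are a description and support nothing. Over all genes, 37.4% of those with GATTACT and not ACACATC were lower and 5.44% higher. Of those with ACACATC and not GATTACT, 31.0% were higher and 7.95% lower. Of the 7 tested genes with GATTACT and not ACACATC, 4 were lower (among them *CCND1*, *MAPK14* and *SOS1*), 1 was higher (*RPS6KA3*) and 2 were not called. Of the 8 tested genes with ACACATC and not GATTACT, 3 were higher (*MKNK2*, *RPS6KA2* and *ELK3*, the last called in 2 of the 6 fits without 1 library), 1 was lower (*ERRFI1*) and 4 were not called. The site of *RPS6KA2* (chr6:166409497-166409525, minus strand) is shown because this gene rose most among those with ACACATC.
RPS6KA2: cagttatgtttACACATCatttttatgtt
*MAP2K1* and *PTPN11* changed as well and hold neither word in the 3′ UTR.

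**Figure D5:**
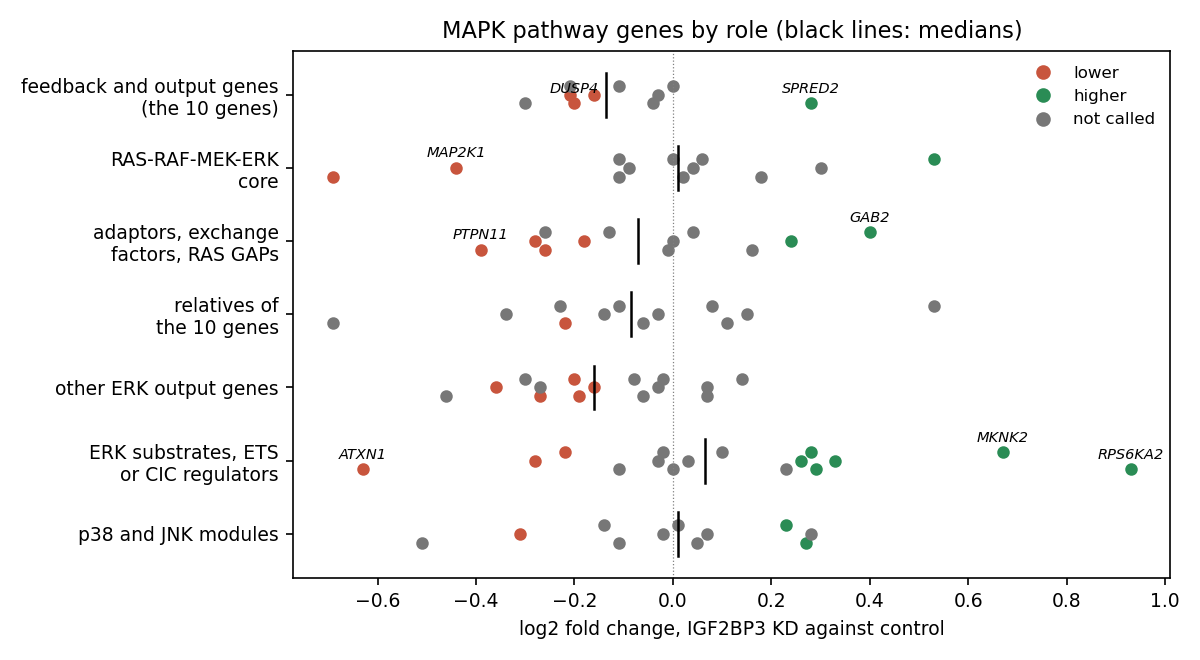
Log2 fold change, IGF2BP3 KD against control (x axis), of every tested gene in 7 groups of the MAPK pathway; points are genes, coloured by call, and black lines are group medians. The 10 feedback and output genes lie between -0.30 and 0.28, while *ATXN1* at -0.63 and *RPS6KA2* at 0.93 lie further out.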

How the data were processed

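Poly(A) RNA of OE-19 cells was sequenced by the authors as paired reads from directional libraries, aligned to hg38 with HISAT2 and counted per gene with featureCounts. The deposited values are these raw counts per gene. Tool versions, the annotation release and the strand setting of the counting are not given in the sources used here, so counts in exons shared with another gene are uncertain. Of the feedback and output genes, this touches *DUSP6*, *ETV4*, *ETV5* and *PHLDA1*, which share 28.6%, 1.93%, 2.84% and 9.35% of their exon bases with another gene.

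Repeated entries of an identifier (132 rows) were left out. Counts were scaled by TMM, filtered with filterByExpr (minimum count 10, minimum total 15) and tested with glmQLFit and glmQLFTest (edgeR 4.0.16, R 4.3.3), without a block, with Benjamini-Hochberg adjustment over 19778 genes. Standard errors were derived from the F statistic and intervals from its degrees of freedom. The square root of the common dispersion was 0.148. Libraries of 1 group differed by more than sampling noise (chi-square per degree of freedom of at least 9.86). Alternatives were DESeq2 1.42.0, RLE scaling, other filters, the replicate number as a block, a minimum log2 fold change of 0.5 in size, and each library left out. The script was tested on simulated data. Gene models and 3′ UTRs (canonical transcripts) were read from GENCODE v44 and sequence from hg38. This annotation holds 99.97% of the genes that were tested. Python 3.11.15 was used for the tables.

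The 10 genes, the pathway lists and the words GATTACT and ACACATC were chosen with earlier results of these data known, and TGGAC, the paralog ratios and the background of genes with at least 10 CPM after the data were seen. Named in each pathway list are the 2 called genes with the smallest p in each direction. Others are marked where they appear, and some genes of the lists are not reported here.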

Additional observations from a re-analysis of the deposited data

How the results depend on the processing

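With a minimum log2 fold change of 0.5 in size added to the threshold, none of the 10 genes was called (0 higher, 0 lower). The same limit left 465 higher and 416 lower of all genes tested, 1 lower core gene, 2 higher and 1 lower ERK substrate or regulator, and 0 in each direction among adaptors and RAS GAPs, among p38 and JNK genes, among other ERK output genes and among relatives of the 10 genes. DESeq2 and the replicate block each gave 3 higher core genes in place of 1. *PHLDA2*, the lower relative, was lost with the replicate block and without the low-count filter (0 lower). With 1 library left out, the count of lower genes among the 10 was between 1 and 3, that of lower relatives between 0 and 1, and that of higher core genes between 1 and 2. The cause of these changes was not tested.

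*DUSP4* and *SPRED2* were called in all 11 other fits. *SPRED1* turned sign without control replicate 1 (0.02, in a range from -0.08 to 0.02), and *SPRY2* without KD replicate 3 (0.07) or control replicate 3 (0.04), in a range from -0.07 to 0.07. Replicate numbers did not pair the libraries: deviations from the group means correlated between -0.03 and 0.01 for the same number, and the replicate block left 1 higher and 3 lower of the 10 genes, with 1875 higher and 2026 lower of all. With RLE scaling or at least 10 counts in every library, the calls of the 10 genes were the same. Leaving 1 library out leaves 2 in its group. Depth limits *DUSP5* most, with at most 178 counts.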
